A study of Arabidopsis thaliana with 9 samples.

Results

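Arginine methyltransferase mutants of *Arabidopsis thaliana* that lack different classes of the enzyme were set directly against each other by RNA-seq. Of the 9 libraries of the series, the 6 mutant libraries form this comparison: 3 of *prmt5*, which carries the *prmt5-5* allele, and 3 of *prmt4a;4b*, a double mutant made by crossing the T-DNA insertion lines SALK_033423 (*prmt4a*) and SALK_097442 (*prmt4b*). The 3 wild-type (WT) libraries served only to show on which side a difference lay. All lines are in the Columbia ecotype, each mutant is a single line, and whole plants were taken, labelled as a pool of tissues. Seeds lay on Murashige and Skoog medium with 0.8% agarose, spent 4 dark days at 4 °C and grew at 22 °C under constant light. The labels give a harvest at 15 days and the study's methods a lower age, the same for every genotype in either source.

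PRMT5 is a type II enzyme that places symmetric dimethyl groups on arginine, while PRMT4A and PRMT4B, the plant counterparts of mammalian CARM1, are type I enzymes that place asymmetric ones. Substrates of PRMT5 include Sm proteins, which form the core of the spliceosomal small nuclear ribonucleoproteins, and both classes methylate histones and RNA-binding proteins. In Arabidopsis PRMT5 is known for its roles in pre-mRNA splicing, flowering and the circadian clock, and the PRMT4 pair for a role in flowering time.

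The introns in which the mutants lay farthest apart are shown here by their sequence, because the shares of consensus bases at the exon-intron junction, given further on, differed between introns high in either mutant. Each line is read 5′ to 3′ on the strand of the gene, from the TAIR10 genome. Capitals mark the first 6 bases (the donor site) and the last 3 bases (the acceptor site) of the intron, and the outermost 3 bases at each end belong to the flanking exons. The first 3 are whole introns between coding exons that held many more reads in *prmt5*: *AT1G12730* I001 at chr1:4334847-4334953 (plus strand), *PYD4* I008 at chr3:2698744-2698838 (minus) and *AVA-P2* I001 at chr1:6913396-6913500 (plus). The bin names (I for introns, E for bins of alternative splicing events) are those of the count tables.
AT1G12730 I001: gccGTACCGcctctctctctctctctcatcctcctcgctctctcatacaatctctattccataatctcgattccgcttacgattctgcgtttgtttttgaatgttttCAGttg
PYD4 I008: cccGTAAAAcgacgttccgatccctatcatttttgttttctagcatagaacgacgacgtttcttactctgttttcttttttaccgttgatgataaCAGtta
AVA-P2 I001: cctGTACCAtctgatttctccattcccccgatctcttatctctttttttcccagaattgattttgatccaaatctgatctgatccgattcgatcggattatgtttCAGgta

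The donor sites of the other 2 introns of this kind, *TGA9* I009 (chr1:2625813-2626189, minus) and *ZIF1* I002 (chr5:4432837-4433088, plus), stand before those of the 6 named introns that held more reads in *prmt4a;4b*. These are *ILA* I064 (chr1:24082721-24083384, minus) and I063 (chr1:24082065-24082538, minus), *AT5G53850* I013 (chr5:21863701-21864088, minus), *AT1G67900* I001 (chr1:25464988-25467031, plus), *LpxC2* I005 (chr1:8777261-8777827, plus) and *AT1G58602* I001 (chr1:21746500-21753883, plus). None of the 5 introns shown that were high in *prmt5* has AG as its last exon bases, whereas *AT5G53850* I013, *LpxC2* I005 and *AT1G58602* I001 do.
TGA9 I009 donor: actGTACCCtttc
ZIF1 I002 donor: cttGTAACAcctt
ILA I064 donor: taaGTATGAattt
ILA I063 donor: gatGTAATCtgtt
AT5G53850 I013 donor: aagGTATGGtttt
AT1G67900 I001 donor: attGTAAGTtttt
LpxC2 I005 donor: tagGTATGGtaaa
AT1G58602 I001 donor: aagGTTAGTcatt

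Depth and labels were checked first. Gene reads per library ranged from 25029646 to 31835579 in WT, 31917097 to 39904677 in *prmt5* and 28137176 to 29706081 in *prmt4a;4b*. Transcripts of the mutated *PRMT4A* were at 230.8, 221.6 and 197.2 normalized counts (reads divided by the relative effective size of the library) in *prmt5* and at 32.3, 68.6 and 36.1 in *prmt4a;4b*, and those of *PRMT4B* at 317.5, 420.5 and 442.6 against 17.39, 33.8 and 20.5, so both target genes were low in the double mutant. *PRMT5* itself was at 1016, 830.1 and 780.8 in *prmt5* and at 865.8, 807.7 and 878.2 in *prmt4a;4b*, and the groups overlapped, so its count does not check the label of the *prmt5* libraries. The share of plastid-encoded reads was 0.324 to 0.58% in WT, 0.604 to 2.1% in *prmt5* and 0.869 to 3.94% in *prmt4a;4b*, and the top 10 genes made up 13.8 to 15.3%, 16.2 to 19.1% and 19.5 to 23.4% of reads; their part in the results was not tested. No source used here says whether replicates are independent cultures, so p-values cover only the variation among these 9 libraries, and strand use in counting is not stated, so overlapping and antisense genes cannot be told apart.

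The mutants differed in genes, in alternative splicing (AS) events and in introns. A feature was called at the limits of the study, applied to *prmt5* minus *prmt4a;4b* in an edgeR quasi-likelihood fit of all 9 libraries with Benjamini-Hochberg adjustment: an adjusted p under 0.10 and a log2 difference beyond 0.58 for genes, and for bins an adjusted p under 0.15 with both the reads and the splicing index (read density of the bin over that of its gene) beyond 0.58 in the same direction. Of 21193 genes tested, 2044 (9.64%) were higher and 1730 (8.16%) lower in *prmt5*, 17.8% in all. Of 4379 bins of annotated AS events, 300 (6.85%) were higher and 141 (3.22%) lower, 10.1% in all. Of 15684 constitutive introns tested, 3112 (19.8%) were higher and 387 (2.47%) lower, 22.3% in all, so higher calls were the larger set in introns and AS bins and nearly balanced in genes. The limits differ between genes and bins, so these shares are not set against each other. Without *prmt5* replicate 2 the AS counts were 189 and 76, without *prmt5* replicate 3 they were 189 and 78, and without *prmt4a;4b* replicate 3 there were 92 lower AS bins, while lower introns were 223 and 254 without *prmt5* replicates 2 and 3.

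Among the introns tested, WT placed most of the differences on the side of *prmt5*, but the size of that share depended on the filter. Among the 3112 introns higher in *prmt5*, 2063 passed the same limits against WT in *prmt5* alone, 281 in *prmt4a;4b* alone, 213 in both mutants in the same direction, 38 in opposite directions and 517 in neither. *prmt5* lay farther from WT in splicing index in 78.5% of them, and in 25.3% of the 387 lower introns, of which 160 passed in *prmt4a;4b* alone and 55 in *prmt5* alone. In this set 4200 introns reached the mean of 5 reads through *prmt5* alone and 622 through *prmt4a;4b* alone. Where WT alone had to pass, *prmt5* was farther in 58.6% of 845 higher and 36.9% of 157 lower introns. For genes the sides were more even: of the 2044 higher ones, 829 passed against WT in *prmt5* alone and 520 in *prmt4a;4b* alone, with *prmt5* farther from WT in 57.6%, and of the 1730 lower ones 552 and 648, with 48% farther. AS bins gave 127 and 73 among the higher (57.7% farther) and 33 and 70 among the lower (32.6%). That side of the higher AS bins turned with the filter. Of the AS bins, 312 reached the mean of 5 reads through *prmt5* alone and 101 through *prmt4a;4b* alone. A filter that WT alone had to pass was an alternative chosen after seeing the data. It left 3634 bins, of which 206 (5.67%) were higher, with *prmt5* farther in 43.2%. Under it 123 (3.38%) were lower, with 35% farther. Both mutants were compared with the same 3 WT libraries, so these counts describe the sides and are no test of them.

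As a share of all gene reads, reads in constitutive introns were higher in each *prmt5* library than in each *prmt4a;4b* library. The share was 1.98, 2.1 and 2.00% in *prmt5*, 1.58, 1.76 and 1.56% in *prmt4a;4b*, and 1.70, 1.70 and 1.63% in WT. The means were 2.03 ± 0.06% and 1.64 ± 0.11% (SD, n = 3 each), a difference of 0.396 percentage points with p = 0.1 in an exact two-sided permutation test, the smallest that 3 against 3 libraries can give. In *prmt4a;4b* the share overlapped that of WT.

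**Figure D1:**
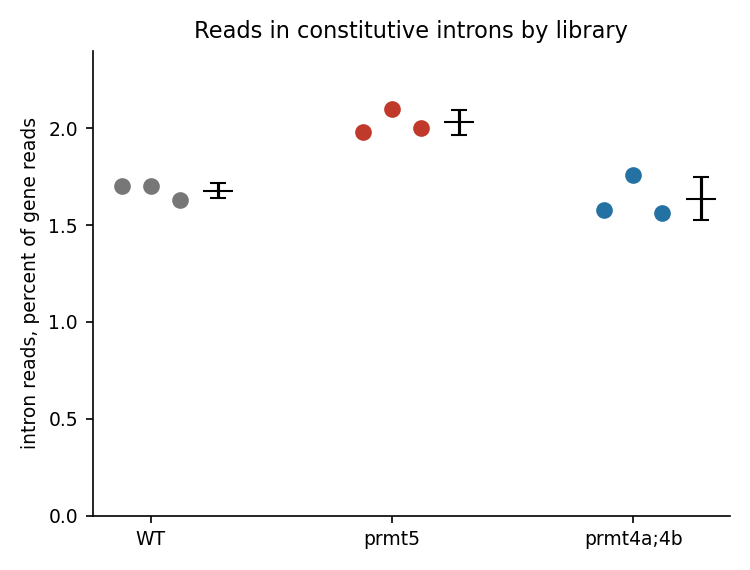
Reads in constitutive introns as a percent of all gene reads, 1 point per library, with the mean and SD of 3 libraries beside each genotype. The 3 *prmt5* libraries lie at 1.98 to 2.1%, above all *prmt4a;4b* (1.56 to 1.76%) and WT libraries.

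The excess of higher introns depended on which introns could be tested. An intron was tested if any genotype averaged 5 or more reads, and 4200 of the 15684 entered through *prmt5* alone but 622 through *prmt4a;4b* alone. These entries favour introns with more reads in *prmt5*. The reads of the filter were not scaled to library size, and each *prmt5* library held more gene reads than each *prmt4a;4b* library. The part of depth in these entries was not tested. Where WT alone had to pass the filters, 8264 introns remained, of which 845 (10.2%) were higher and 157 (1.9%) lower in *prmt5*, all of them among the calls above. *prmt5* then lay farther from WT in 58.6% of the higher ones and 36.9% of the lower ones. The median log2 difference in splicing index was 0.32 over all introns tested and 0.13 over those that passed in WT.

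*TGA9* I009, in the gene of a bZIP transcription factor, had the smallest adjusted p of all introns. It held 615, 979 and 748 reads in *prmt5*, 8, 7 and 4 in *prmt4a;4b* and 13, 6 and 4 in WT, so *prmt4a;4b* lay within the range of WT. The log2 difference in reads was 6.54 ± 0.37 (edgeR, adjusted p = 5.81e-18). The splicing index was 1.1 ± 0.05 in *prmt5* and 0.118 ± 0.044 in *prmt4a;4b* (SD, n = 3), an intron read about as densely as its gene in the first and at a small part of it in the second. The gene as a whole was also higher, by 3.31 on the log2 scale.

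*AT1G12730* I001, in a gene annotated as a subunit of the transamidase that attaches GPI anchors, held 185, 229 and 185 reads in *prmt5*, 1, 4 and 3 in *prmt4a;4b* and none in WT. It passed against WT in both mutants, with the larger change in *prmt5* (direct log2 difference 5.81 ± 0.44, adjusted p = 2.27e-13). *PYD4* I008 held 121, 180 and 143 reads in *prmt5* and 0, 1 and 0 in *prmt4a;4b*, with so few reads in the lower mutant that the ratio of 344-fold has a counting interval of 61.4 to 13600.

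*ZIF1* encodes a vacuolar transporter for zinc tolerance. Its I002 held 217, 231 and 167 reads in *prmt5*, 3, 4 and 0 in *prmt4a;4b* and 0, 1 and 2 in WT (log2 difference 6.04 ± 0.48, adjusted p = 3.67e-13). In *AVA-P2*, which encodes a membrane subunit of the vacuolar proton pump, I001 was deeply covered, with 1109, 1123 and 979 reads in *prmt5*, 55, 73 and 95 in *prmt4a;4b* and 25, 52 and 34 in WT. Its splicing index was 1.53 ± 0.04 against 0.0812 ± 0.0161 (log2 difference in reads 3.49 ± 0.29, adjusted p = 1.22e-12), while the gene itself was lower in *prmt5*, by 0.73 on the log2 scale. None of these 5 introns overlapped between the mutants in any library, which the rule for naming them required. *AT1G12730* I001, *PYD4* I008 and *ZIF1* I002 did not pass the filters in WT, so their high reads in *prmt5* also let them be tested.

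The named introns that were higher in *prmt4a;4b* began with a pair in 1 gene. *ILA* encodes ILITYHIA, a HEAT-repeat protein that acts in translation control and immunity. *ILA* I064 held 111, 157 and 153 reads in *prmt4a;4b*, 0, 4 and 8 in *prmt5* and 2, 3 and 1 in WT (log2 difference -5.46 ± 0.45, adjusted p = 1.22e-12). *ILA* I063, a neighbouring intron of the same gene, held 77, 70 and 56 reads in *prmt4a;4b* and none in *prmt5*, which makes it at least 87.4-fold lower in *prmt5* when 3 reads over its 3 libraries are taken as the floor. Both introns stood near the density of their gene in *prmt4a;4b* (splicing index 1.12 ± 0.15 and 0.763 ± 0.159) and near 0 in the other genotypes, and the gene count did not pass the test (log2 difference 0.13, adjusted p = 0.441). Neither intron passed the filters in WT, so their reads in *prmt4a;4b* also let them be tested.

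*AT5G53850*, annotated as a haloacid dehalogenase-like hydrolase, differed in both I013 and the exon next to it. I013 held 84, 129 and 106 reads in *prmt4a;4b*, 9, 6 and 4 in *prmt5* and 35, 14 and 33 in WT, so WT lay between the mutants (log2 difference -4.38 ± 0.43, adjusted p = 7.18e-11). *AT1G67900* I001, a long intron outside the coding span of a gene of the NPH3 family of phototropic response proteins, held 46, 55 and 45 reads against 15, 12 and 5 (log2 difference -2.52 ± 0.41, adjusted p = 1.14e-05). It did not pass the filters in WT. *LpxC2* I005 held 526, 853 and 742 reads against 307, 397 and 296 (-1.44 ± 0.24, adjusted p = 2.43e-05). *LpxC2* has near-identical copies in the genome, so reads could be shared among them and the value is uncertain. *AT1G58602* I001, in a disease resistance gene, held 138, 205 and 131 reads against 37, 93 and 74 (-1.60 ± 0.29, adjusted p = 6.68e-05), with the reads lower by 1.39 but the splicing index within its limit when *prmt5* replicate 1 was left out.

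**Figure D2:**
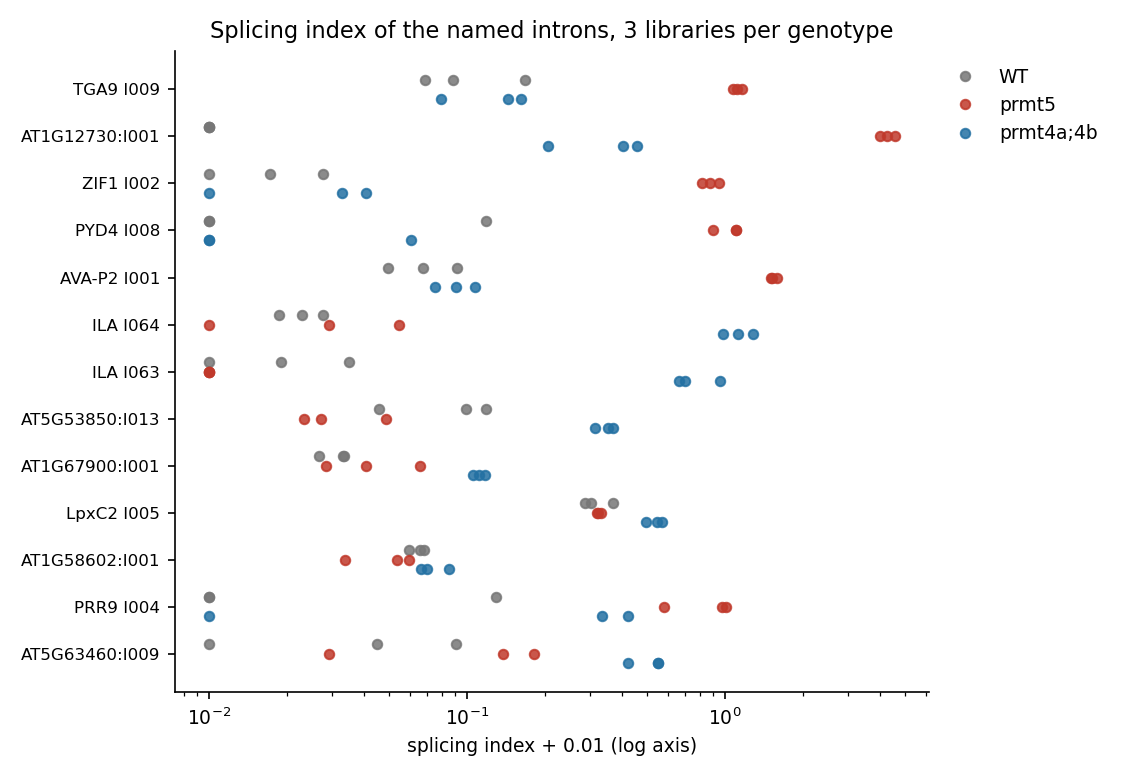
Splicing index plus 0.01 on a log axis for the named introns and those of the events the study tested by RT-PCR, 3 libraries per genotype. In the upper 5 introns the *prmt5* libraries stand apart (1.06 to 1.15 in *TGA9*), with *prmt4a;4b* near WT except in *AT1G12730*, where it lies between, and in *ILA* the *prmt4a;4b* libraries stand apart (0.652 to 1.27).

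Across all tested introns, those higher in *prmt5* had fewer consensus bases on the exon side of the donor site. AG at positions -2 and -1, the last bases of the exon, was present in 38.2% of the introns higher in *prmt5*, 53.8% of all introns tested and 58.6% of the introns lower in *prmt5*. A at -2 stood in 48.0, 62.4 and 71.2% of them, and G at -1 in 61.8, 77.4 and 80.9%. On the intron side the shares were closer: A at +3 in 52.3, 59.8 and 68.3%, and G at +5 in 40.7, 44.6 and 51.9%. The share of pyrimidines before the acceptor was 62.3, 61.5 and 61.5%. Among introns that passed the filters in WT, AG stood in 45.0% of the higher, 59.3% of all and 58.7% of the lower introns. These are shares without a test; over the alternatives of the processing the share of AG ranged from 34.4 to 45.0% in the higher and from 55.1 to 60.5% in the lower introns.

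Intron length went with the direction of the call. The share higher in *prmt5* was 15.9% of introns of up to 85 bases, 20.2% at 86 to 120, 23.2% above 120 and up to 300 and 18.8% over 300 bases. The share lower in *prmt5* was 1.96, 1.83, 2.31 and 5.57%. Among introns that passed in WT, the higher shares were 9.09, 10.5, 12.2 and 7.68% and the lower ones 1.42, 1.33, 2.05 and 4.86%, so the longest introns held the largest share of lower calls under both filters. The 3112 higher introns lay in 2371 genes, 560 of which had more than 1, and 63 genes had introns called in both directions. Of these host genes 555 (23.4%) were also higher and 22 (0.928%) lower as genes, against 11.5% and 5.65% of all genes with a tested intron. Of the 365 host genes of lower introns, 7 were higher and 51 (14%) lower. The call required a difference in intron reads that were not set against the reads of the gene. A gene that differs thus makes calls in its own direction easier, and these shares are no separate result.

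AS bins of each event class were called in both directions. Of 1229 intron retention (IR) bins, 107 (8.71%) were higher and 38 (3.09%) lower in *prmt5*. Alternative 5′ bins gave 56 (8.42%) and 23 (3.46%) of 665, alternative 3′ bins 66 (4.69%) and 28 (1.99%) of 1407, and bins of mixed class 50 (6.99%) and 32 (4.48%) of 715. Exon skipping (ES) bins were nearly balanced, with 21 (5.79%) higher and 20 (5.51%) lower of 363, although the lower ones were 8, 12 and 12 without *prmt5* replicate 2, *prmt5* replicate 3 or *prmt4a;4b* replicate 3. Lower IR bins were 25, 19, 24 and 22 without *prmt5* replicate 2 or 3 or *prmt4a;4b* replicate 2 or 3, and higher alternative 3′ bins 36 and 31 without *prmt5* replicate 2 or 3. Higher alternative 5′ bins were 33 without *prmt5* replicate 2, lower alternative 3′ bins ranged from 14 to 44 with *prmt5* replicate 2 or 1 left out, and lower alternative 5′ bins were 12 without *prmt5* replicate 2. Bins of mixed class were 30 higher and 17 lower without *prmt5* replicate 2, 33 and 13 without *prmt5* replicate 3, and 20 lower without *prmt4a;4b* replicate 3. Under the WT filters IR bins gave 57 higher calls. With gene reads as an offset, higher bins were 41 of alternative 3′, 35 of alternative 5′ and 13 of ES class, and lower ones of mixed class were 19.

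**Figure D3:**
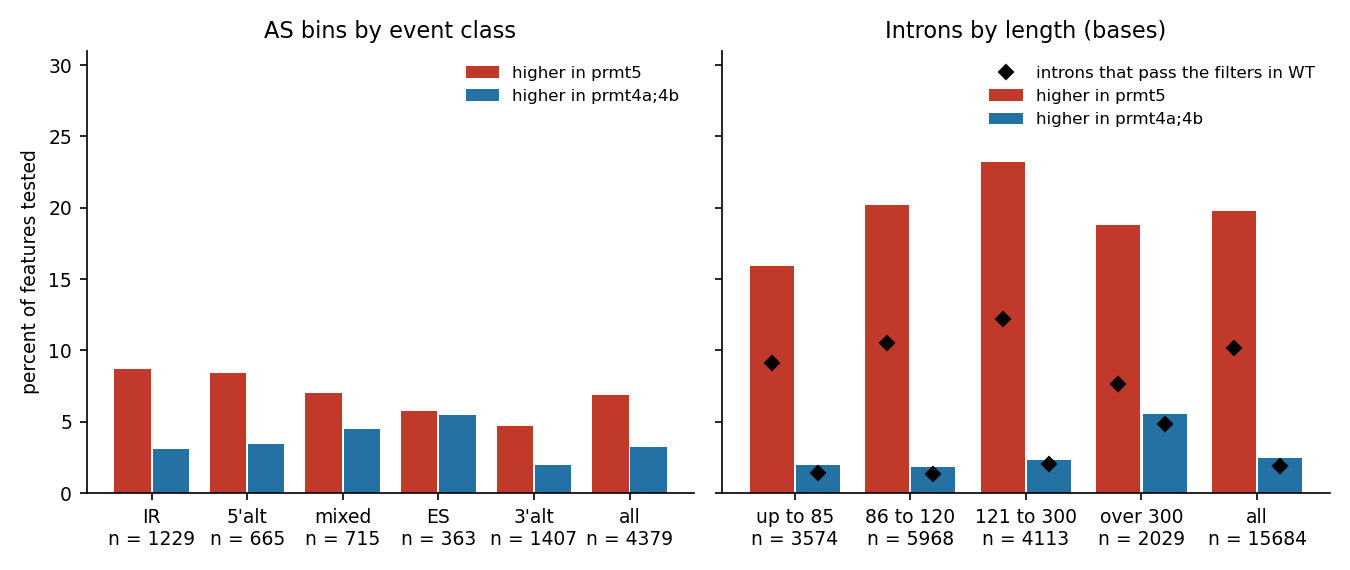
Percent of tested AS bins by event class and of tested introns by length that were higher in *prmt5* (red) or in *prmt4a;4b* (blue); diamonds give the introns that passed the filters in WT. ES is nearly balanced (5.79 and 5.51%), and introns over 300 bases hold the largest share of introns higher in *prmt4a;4b* (5.57%).

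Among IR bins, *PHOT2* E024 differed most. *PHOT2* encodes phototropin, a blue light receptor for phototropism and chloroplast movement. The bin lies at chr5:23529219-23529316 (plus strand, TAIR10) between coding exons and is shown with 12 exon bases on each side in lower case, beside that of *MYB28* at chr5:24690583-24690662 (minus strand).
PHOT2 E024: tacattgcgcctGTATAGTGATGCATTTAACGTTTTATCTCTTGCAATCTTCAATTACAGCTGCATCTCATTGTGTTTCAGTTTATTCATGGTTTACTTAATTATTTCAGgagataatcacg
MYB28 E003: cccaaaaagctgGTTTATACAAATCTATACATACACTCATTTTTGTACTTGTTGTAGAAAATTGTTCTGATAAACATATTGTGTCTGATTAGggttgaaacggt

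*PHOT2* E024 held 206, 249 and 216 reads in *prmt5*, 6, 1 and 5 in *prmt4a;4b* and 14, 2 and 7 in WT (log2 difference 5.39 ± 0.46, adjusted p = 8.31e-08). *MYB28* is a regulator of aliphatic glucosinolate synthesis, and its E003 held 245, 241 and 225 reads against 27, 15 and 23, with 16, 28 and 20 in WT (3.08 ± 0.30, adjusted p = 4.27e-07). In both, *prmt4a;4b* overlapped WT. Of the IR bins higher in *prmt4a;4b*, *AT4G38520* E005, in a protein phosphatase 2C gene, held 88, 132 and 120 reads against 57, 39 and 46 (-1.59 ± 0.29, adjusted p = 0.000779), and *AT5G63370* E003, in a protein kinase gene, 31, 67 and 51 against 9, 12 and 16 (-2.35 ± 0.43, adjusted p = 0.000938). *AT4G38520* E005 did not pass the filters in WT.

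Alternative splice site bins differed in both directions. The alternative 3′ bin *AT4G34090* E004 (chr4:16328480-16328493, minus), in a gene annotated as cyclin delta, and the alternative 5′ bin *AT1G76050* E006 (chr1:28542016-28542034, plus), in a pseudouridine synthase gene, were high in *prmt5*. *PIN7* E010 (chr1:8182206-8182217, minus), in the gene of an auxin efflux carrier, was high in *prmt4a;4b*. Capitals mark the bin.
AT4G34090 E004: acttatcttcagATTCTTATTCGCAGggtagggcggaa
AT1G76050 E006: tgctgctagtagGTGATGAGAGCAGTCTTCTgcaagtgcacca
PIN7 E010: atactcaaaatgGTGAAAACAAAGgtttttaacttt

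*AT4G34090* E004 held 31, 80 and 47 reads in *prmt5*, 3, 2 and 0 in *prmt4a;4b* and 13, 7 and 7 in WT, with the mutants on either side of WT (log2 difference 4.49 ± 0.61, adjusted p = 2.74e-05). *AT1G76050* E006 held 182, 211 and 209 against 30, 32 and 17, with 15, 5 and 20 in WT (2.57 ± 0.34, adjusted p = 2.58e-05). *PIN7* E010 held 128, 117 and 93 reads in *prmt5*, 350, 195 and 209 in *prmt4a;4b* and 178, 139 and 189 in WT, again with WT between the mutants in splicing index (-1.53 ± 0.29, adjusted p = 0.00137). The sequence of *AT1G52100* E007, an alternative 5′ bin outside the coding span of a mannose-binding lectin gene, is not shown. It held 108, 268 and 300 reads in *prmt5* and 7, 0 and 5 in *prmt4a;4b* (5.37 ± 0.48, adjusted p = 1.26e-07).

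The other named splice site bins differed less. *POR C* E004, a 3′ bin of 6 bases in the gene of protochlorophyllide oxidoreductase C, had a splicing index of 48.1 ± 5.09 in *prmt5* and 31.2 ± 2.54 in *prmt4a;4b* (log2 difference in reads 1.33 ± 0.21, adjusted p = 0.000251). Its index ratio was under the limit without *prmt5* replicate 3 or *prmt4a;4b* replicate 1, where the reads differed by 1.17 and 1.38. Such short bins have an index far above 1 because every read that touches them is counted. *BGLU21* E009, in a glycosyl hydrolase gene with close relatives, had an index of 15.3 ± 1.05 against 30.7 ± 6.02 (-1.78 ± 0.31, adjusted p = 0.000529), *AT1G17990* E006, in an oxidoreductase gene, an index of 1.60 ± 0.37 against 2.81 ± 0.23 (-1.20 ± 0.27, adjusted p = 0.00548), and *AT3G57470* E028, in a peptidase gene, 0.603 ± 0.023 against 1.04 ± 0.09 (-1.80 ± 0.39, adjusted p = 0.00379). The gene *AT3G57470* was itself lower, by 1.02 on the log2 scale, and with gene reads as an offset the bin did not pass (-0.79, adjusted p = 0.248).

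Skipped exons separated the mutants most in *AT5G53850*, the gene whose I013 is described above. Exon bin E012 (chr5:21863653-21863700, minus) directly follows that intron, and it is shown with the bin *AT1G63770* E021 (chr1:23660981-23660999, minus) of mixed class, which had no read in *prmt4a;4b*.
AT5G53850 E012: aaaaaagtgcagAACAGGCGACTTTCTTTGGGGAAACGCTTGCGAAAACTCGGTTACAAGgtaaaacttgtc
AT1G63770 E021: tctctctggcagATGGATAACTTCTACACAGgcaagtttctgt

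*AT5G53850* E012 held 4, 1 and 0 reads in *prmt5*, 25, 76 and 73 in *prmt4a;4b* and 84, 40 and 23 in WT (log2 difference -5.35 ± 0.66, adjusted p = 1.18e-05), so the exon was near 0 in *prmt5* only, while the gene count did not pass (log2 difference -0.48). *AT1G13350* E010, an exon bin of a protein kinase gene, held 11, 18 and 15 reads against 52, 64 and 35, with 49, 48 and 38 in WT (-2.14 ± 0.34, adjusted p = 0.000189). *AT1G63770* E021, in a peptidase M1 gene, held 26, 30 and 20 reads in *prmt5*, none in *prmt4a;4b* and 42, 37 and 13 in WT, and was at least 19.6-fold higher in *prmt5* with 3 reads over the 3 *prmt4a;4b* libraries as the floor (adjusted p = 4.55e-05). In contrast to the introns, this loss of reads lay on the *prmt4a;4b* side.

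Of the remaining named bins, *AT1G51200* E005, of mixed class in a gene for an A20/AN1 zinc finger protein, held 72, 122 and 123 reads in *prmt5* and 12, 16 and 13 in *prmt4a;4b* (log2 difference 2.56 ± 0.35, adjusted p = 2.95e-05). It did not pass the filters in WT. *VAB2* E017, in the gene of a peripheral subunit of the vacuolar ATPase, held 8, 5 and 14 reads against 41, 24 and 28 (-2.14 ± 0.44, adjusted p = 0.00308). *HCF243* E003 held 48, 67 and 41 against 79, 105 and 93 (-1.20 ± 0.26, adjusted p = 0.00397), with the index ratio under the limit without *prmt5* replicate 3 (reads -1.07), and it did not pass with gene reads as an offset (-0.59, adjusted p = 0.223). The ES bin *AT4G04223* E003 held 69, 96 and 77 reads against 1, 5 and 11 (3.44 ± 0.50, adjusted p = 7.44e-05), not past the limits without *prmt4a;4b* replicate 1 (2.96). The gene was higher by 2.49, and with gene reads as an offset the bin did not pass (0.99, adjusted p = 0.30). *SR34a* E003, an ES bin outside the coding span of a splicing factor gene, held 110, 165 and 107 reads in *prmt5*, 22, 39 and 29 in *prmt4a;4b* and 54, 98 and 71 in WT (1.71 ± 0.28, adjusted p = 0.000323), with its index highest in WT (0.226, beside 0.132 in *prmt5* and 0.0606 in *prmt4a;4b*).

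The events that the study tested by RT-PCR gave a difference between the mutants in part. *PRR9* encodes a morning-phased pseudo-response regulator of the clock, and its I004 (chr2:19233551-19233637, plus) held 24, 24 and 37 reads in *prmt5*, 4, 0 and 3 in *prmt4a;4b* and 2, 0 and 0 in WT (log2 difference 3.17 ± 0.67, adjusted p = 0.000544). The splicing index was 0.846 ± 0.241 against 0.245 ± 0.216, and the 3 and 3 libraries did not overlap. The intron did not pass the filters in WT.
PRR9 I004: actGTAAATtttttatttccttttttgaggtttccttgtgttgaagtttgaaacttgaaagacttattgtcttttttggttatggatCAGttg

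The neighbouring alternative 5′ bin *PRR9* E003, of 8 bases, held 12, 12 and 20 reads against 2, 6 and 0 and did not pass in its index (log2 difference in reads 2.09 ± 0.84). *AT5G63460* I009 held 4, 1 and 6 reads in *prmt5*, 11, 19 and 15 in *prmt4a;4b* and 2, 6 and 0 in WT (-2.32 ± 0.67, adjusted p = 0.0136). The exon bin beside it, *AT5G63460* E007, held 1, 2 and 2 against 5, 14 and 9 (-2.74 ± 0.87, adjusted p = 0.047), and missed the limit without *prmt5* replicate 2 (-2.77, adjusted p = 0.155) or *prmt4a;4b* replicate 2 (-2.44, adjusted p = 0.180). *PRR9* E003 and both *AT5G63460* features did not pass the filters in WT. *AT3G17100* E003, an IR bin, held 64, 60 and 37 reads in *prmt5*, 21, 43 and 34 in *prmt4a;4b* and 9, 4 and 6 in WT. Both mutants passed against WT there, and the direct difference of 0.38 ± 0.36 (log2, adjusted p = 0.565) did not pass, with overlapping libraries.

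Introns higher in *prmt5* took a share of the tested introns of SR genes near that of all introns. Of 57 tested introns in SR genes, which encode serine/arginine-rich splicing factors, 12 were higher in *prmt5* (21.1%, beside 19.8% of all introns) and 0 lower. The 12 lay in *SR34*, *SR34a*, *SR34b*, *SR30*, *RSZ21*, *SC35* and *SR45a*. *SR45a* I003 held 113, 337 and 258 reads in *prmt5*, 38, 36 and 31 in *prmt4a;4b* and 33, 37 and 51 in WT (log2 difference 2.33 ± 0.33, adjusted p = 6.16e-07). *SR34* I013 held 25, 53 and 34 reads in *prmt5*, 6, 8 and 4 in *prmt4a;4b* and 13, 12 and 24 in WT, with the mutants on opposite sides of WT (2.23 ± 0.48, adjusted p = 0.000827). At *SR34* I014 the difference lay on the other side: 28, 76 and 60 reads in *prmt5*, 17, 23 and 13 in *prmt4a;4b* and 55, 51 and 38 in WT (1.23 ± 0.36, adjusted p = 0.0157). *SC35* I008 held 22, 43 and 24 against 5, 7 and 4 (2.07 ± 0.54, adjusted p = 0.00545). These events, and those of the next paragraphs up to *RD22* I002, lie outside the rule for named genes. They were chosen after their values were seen, from those that passed without any single library.

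Among other RNA-binding regulators of splicing, 6 of 28 introns were higher in *prmt5* (21.4%, beside 19.8% of all introns) and 1 lower (3.57%, beside 2.47%). *PTB1* encodes a polypyrimidine tract-binding protein, which regulates splice site choice. *PTB1* I001 held 66, 122 and 86 reads in *prmt5*, 0, 1 and 4 in *prmt4a;4b* and 5, 0 and 1 in WT (log2 difference 5.30 ± 0.58, adjusted p = 1.70e-09), with *prmt4a;4b* overlapping WT. *U2AF35A*, the small subunit of the factor that binds the acceptor site, had 107, 126 and 106 reads in I002 against 18, 23 and 24, with 6, 10 and 12 in WT (2.02 ± 0.34, adjusted p = 1.87e-05), so both mutants were above WT and *prmt5* more so. Of 25 introns of Sm, LSm and U1 protein genes, 2 (8.0%) were higher and 1 (4.0%) lower. The lower one, *SmD2B* I004, in the gene of a core Sm protein, held 21, 29 and 16 reads in *prmt5* and 27, 53 and 43 in *prmt4a;4b*, with overlapping reads but an index of 0.189 ± 0.052 against 0.490 ± 0.079 (-1.25 ± 0.37, adjusted p = 0.0165). In the methyltransferase family, *PRMT5* I003 had 11, 18 and 1 reads in *prmt5* and 0 in every other library (adjusted p = 0.00521), and DESeq2 did not call it (adjusted p = 0.274).

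Introns of clock and flowering genes were called in small numbers. Of 42 introns of clock genes 5 (11.9%) were higher and 2 (4.76%) lower, of 28 introns of flowering repressor genes 4 (14.3%) and 3 (10.7%), of 16 of flowering promoters 2 (12.5%) and 0, and of 59 of light signaling genes 12 (20.3%) and 1 (1.69%), beside 19.8 and 2.47% of all introns. *PRR7* I004, in a relative of *PRR9*, held 108, 214 and 197 reads in *prmt5*, 40, 68 and 35 in *prmt4a;4b* and 115, 101 and 69 in WT (log2 difference 1.48 ± 0.30, adjusted p = 0.000315). *XCT* I006, in the gene of the clock and splicing factor XAP5 CIRCADIAN TIMEKEEPER, held 32, 23 and 37 against 7, 1 and 2 (2.81 ± 0.58, adjusted p = 0.00048). In the other direction, *TIC* I006, in the clock regulator TIME FOR COFFEE, held 20, 24 and 22 reads in *prmt5*, 36, 41 and 37 in *prmt4a;4b* and 13, 5 and 11 in WT (-1.15 ± 0.39, adjusted p = 0.0352). The alternative 3′ bin *RVE4* E009, in a MYB-like clock gene, held 43, 25 and 34 against 71, 63 and 74 (-1.37 ± 0.32, adjusted p = 0.00862).

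*FLK* encodes a KH-domain RNA-binding protein that represses *FLC*. Reads in *FLK* I006 were 140, 163 and 127 in *prmt5*, 8, 11 and 17 in *prmt4a;4b* and 6, 6 and 9 in WT, so *prmt5* stood far above the others (log2 difference 3.20 ± 0.36, adjusted p = 4.71e-09). *TOE1*, an AP2-like floral repressor targeted by miR172, differed in I003, with 43, 47 and 60 against 0, 11 and 10 reads (2.48 ± 0.53, adjusted p = 0.000636), and in the exon bin E006, with 55, 56 and 62 against 2, 18 and 12 (2.09 ± 0.47, adjusted p = 0.00595). *MAF2* I003, in an *FLC* relative, was higher in *prmt4a;4b*, with 86, 130 and 142 reads against 87, 66 and 61 and an index of 2.39 ± 0.05 against 1.19 ± 0.78 (-1.07 ± 0.29, adjusted p = 0.00884). *PIF7* I005, in a phytochrome-interacting factor of shade response, held 51, 76 and 56 against 12, 2 and 2 (3.09 ± 0.53, adjusted p = 2.71e-05). *RD22* I002, in a gene induced by drought and abscisic acid, held 624, 561 and 371 reads in *prmt5*, 52, 56 and 54 in *prmt4a;4b* and 46, 22 and 46 in WT (2.92 ± 0.32, adjusted p = 1.48e-09). Among these list events, *PTB1* I001, *U2AF35A* I002, *PRMT5* I003, *FLK* I006, *TOE1* I003, *PIF7* I005 and *RD22* I002 did not pass the filters in WT. They were tested through their reads or splicing index in the mutants.

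Among genes without overlap and with a mean of 100 or more normalized counts in the higher mutant, the largest difference towards *prmt5* was in *MRD1* (*AT1G53480*), named for its reduced transcript in a mutant that overaccumulates methionine. It stood at 589.1, 743.1 and 879.8 normalized counts in *prmt5*, 7.45, 0 and 4.82 in *prmt4a;4b* and 408.5, 413.4 and 444.4 in WT (log2 difference 7.52 ± 0.36, adjusted p = 2.69e-08). The next gene on chromosome 1, *HEI10* (*AT1G53490*), a RING protein of meiotic crossover formation, stood at 673.7, 820.7 and 997.1 against 69.6, 21.1 and 31.3, with 507.2, 476.1 and 526.2 in WT (4.37 ± 0.29, adjusted p = 6.29e-07). The annotated spans of *MRD1* (19963047 to 19964712) and *HEI10* (19963267 to 19966952) overlap, so their reads cannot be told apart. In both, WT lay between the mutants and nearer to *prmt5* on the log scale.

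In contrast, *AT1G34047*, a defensin-like gene, was high in *prmt5* alone. It stood at 182.8, 215.3 and 128.2 normalized counts against 2.48, 4.22 and 6.02 in *prmt4a;4b*, with 2.90, 6.70 and 2.34 in WT (log2 difference 5.33 ± 0.41, adjusted p = 1.93e-06). Only its reads in *prmt5* let it be tested. Of all 21193 genes tested, 349 reached the mean of 10 reads through *prmt5* alone and 115 through *prmt4a;4b* alone. *NAC044*, a NAC transcription factor gene of the response to DNA damage, was at 194.3, 250.6 and 313.6 against 19.9, 6.34 and 6.02, with 27.1, 30.1 and 21.1 in WT (4.57 ± 0.37, adjusted p = 3.24e-06). *AT5G03090*, annotated like *MRD1* as a Mto 1 responding down protein, was at 136.8, 108.8 and 77.3 against 9.94, 2.11 and 3.61 (4.37 ± 0.54, adjusted p = 0.000148), and *AT5G28335*, annotated as a pseudogene, at 137.9, 180.9 and 156.3 against 2.48, 13.7 and 10.8 (4.09 ± 0.39, adjusted p = 1.875e-05). Spread was wide in *AT1G68250*, with 220.4, 11.8 and 126.3 against 1.24, 2.11 and 4.82 (5.38 ± 0.97), and in *AT5G51190*, an ERF-type factor gene, with 458.6, 269.4 and 2946 against 52.2, 110.9 and 40.96 (4.15 ± 1.01). In these 2 genes WT overlapped *prmt5*.

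Among the genes lower in *prmt5*, *AT5G35935*, annotated as a pseudogene, stood at 15.7, 8.61 and 8.18 normalized counts in *prmt5*, 678.2, 532.1 and 574.7 in *prmt4a;4b* and 202.3, 113.8 and 267.8 in WT (log2 difference -5.80 ± 0.34, adjusted p = 1.20e-07). *AT4G33970*, a leucine-rich repeat gene, was at 17.8, 24.3 and 30.0 against 263.3, 209.0 and 368.6 (-3.53 ± 0.32, adjusted p = 1.12e-05). *AT5G50310*, a kelch-repeat gene, differed on the *prmt5* side: 37.6, 50.1 and 49.1 in *prmt5*, 453.4, 545.8 and 586.7 in *prmt4a;4b* and 780.2, 772.4 and 631.5 in WT (-3.52 ± 0.18, adjusted p = 3.81e-08). On the *prmt4a;4b* side lay *AT1G70860*, a lipid transport family gene, with 5.22, 339.9 and 305.4 against 1216, 1548 and 2061 (-2.87 ± 0.63, adjusted p = 0.00643), and *AT1G19320*, a thaumatin-like gene, with 14.6, 19.6 and 24.5 against 93.2, 171.0 and 71.1 (-2.50 ± 0.43, adjusted p = 0.00155). *PCC1*, a pathogen and clock controlled gene, was at 43.9, 94.0 and 82.7 against 740.4, 261.8 and 200.0 (-2.43 ± 0.47, adjusted p = 0.00319). *IAA29*, an auxin-inducible repressor of auxin response, was at 78.3, 42.3 and 29.1 against 286.9, 280.8 and 174.7, with WT between (-2.32 ± 0.31, adjusted p = 0.000276). The glycine-rich protein gene *AT1G04660* was at 31.3, 7.83 and 10.9 against 113.0, 142.5 and 249.4 (-3.38 ± 0.43, adjusted p = 0.000167).

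**Figure D4:**
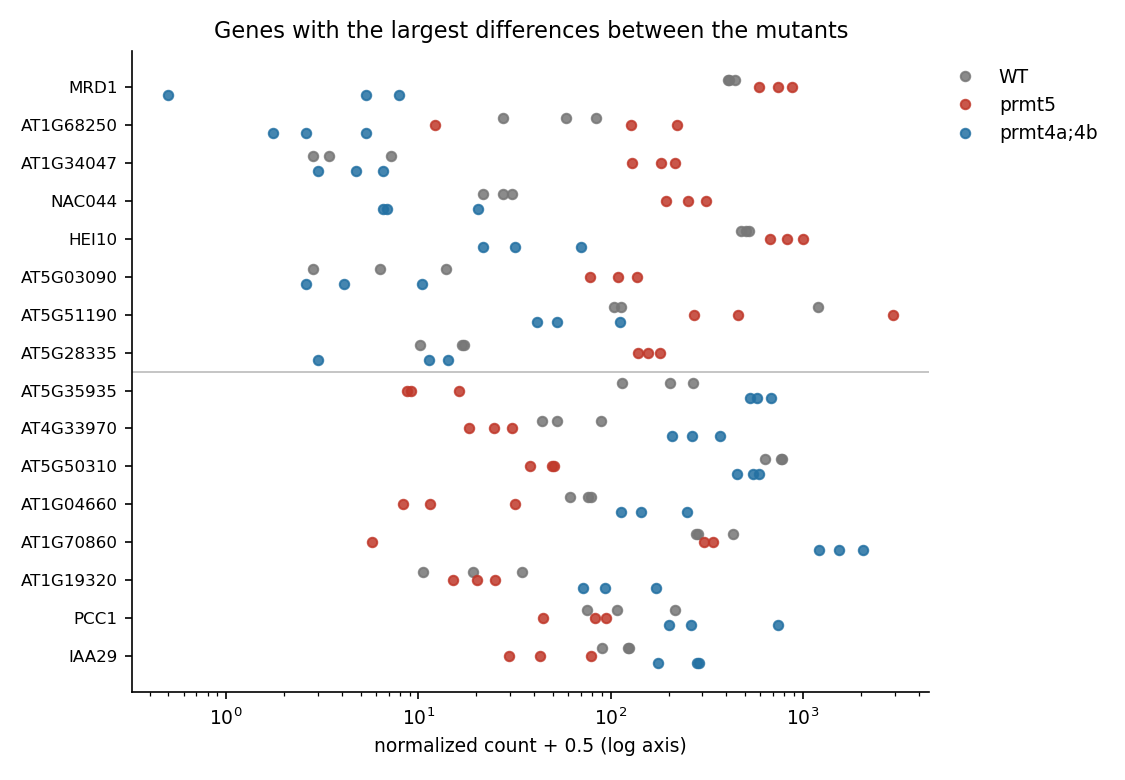
Normalized counts plus 0.5 on a log axis for the 8 genes with the largest difference in each direction, 3 libraries per genotype; the line divides genes higher in *prmt5* (above) from those lower. *MRD1* and *HEI10* were low in *prmt4a;4b* (0 to 69.6), and *AT5G50310* was low in *prmt5* (37.6 to 50.1), with WT at 631.5 to 780.2.

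In 40 genes higher and 19 lower in *prmt5*, both mutants passed against WT in opposite directions. *PYD4*, whose I008 sequence is shown above, stood at 2562, 2322 and 2153 normalized counts in *prmt5*, 310.5, 373.7 and 263.8 in *prmt4a;4b* and 454.0, 548.1 and 578.9 in WT (log2 difference 2.89 ± 0.16, adjusted p = 7.42e-08). *CRK28*, a cysteine-rich receptor-like kinase gene, was at 65.8, 102.6 and 59.1 against 324.2, 414.9 and 383.1, with 220.7, 256.1 and 251.4 in WT (-2.29 ± 0.21, adjusted p = 1.13e-05). *AT1G14430*, related to glyoxal oxidase, was at 240.3, 195.8 and 208.1 against 675.8, 742.2 and 685.5 (-1.71 ± 0.17, adjusted p = 1.97e-05). *MRD1*, *HEI10*, *NAC044*, *AT5G35935*, *AT4G33970*, *AT1G04660*, *IAA29* and the clock gene *PRR9* belong to the same group.

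Of the 9 methyltransferase genes, only the mutated *PRMT4A* and *PRMT4B* passed (log2 difference 2.23 ± 0.24 and 4.02 ± 0.23). *PRMT4A* was also below WT in *prmt5*, where WT stood at 321.4, 343.1 and 332.1. The other 7, *PRMT1A*, *PRMT1B*, *PRMT3*, *PRMT5*, *PRMT6*, *PRMT7* and *PRMT10*, differed by -0.47 to 0.63 on the log2 scale. *PRMT1A* did pass in an edgeR fit of the 6 mutant libraries alone (0.64, adjusted p = 0.0897) and without WT replicate 3 (0.63, adjusted p = 0.078).

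Clock genes differed little at the gene level apart from *PRR9* and *LNK2*. *PRR9* stood at 545.3, 694.6 and 702.6 normalized counts in *prmt5*, 254.7, 157.3 and 233.7 in *prmt4a;4b* and 337.8, 410.0 and 328.6 in WT, with the mutants on opposite sides of WT (log2 difference 1.59 ± 0.18, adjusted p = 8.37e-05). *LNK2*, which encodes a co-activator of evening genes, was lower in *prmt5*, at 2917, 2649 and 2421 against 4386, 4261 and 5554, with 7368, 7493 and 5244 in WT (-0.83 ± 0.16, adjusted p = 0.00287). The other 21 of 23 clock genes tested did not pass (8.7% called, beside 17.8% of all genes), and the list median was 0.01 beside 0.00 over all genes. Without *prmt5* replicate 1 or *prmt4a;4b* replicate 2, 2 clock genes were lower.

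Flowering genes split by member. *FLC*, the MADS-box repressor that vernalization silences, was lower in *prmt5* than in *prmt4a;4b*, at 130.6, 111.2 and 85.4 against 192.5, 311.5 and 277.1, while both were above WT with 69.7, 61.9 and 78.4 (log2 difference -1.26 ± 0.22, adjusted p = 0.00172). Its relative *MAF5* went the other way, at 51.2, 61.9 and 62.7 against 7.45, 19.0 and 19.3, with 10.7, 8.37 and 10.5 in WT (1.93 ± 0.39, adjusted p = 0.0042). *SNZ*, an AP2-like repressor, was higher by 0.59 ± 0.15 (adjusted p = 0.0144), close to the limit of 0.58. It fell short of the limit without *prmt5* replicate 1 (0.46), *prmt4a;4b* replicate 2 (0.52) or 3 (0.57). With all libraries kept it also fell short under RLE scaling (0.575), DESeq2 (0.574) and nuclear genes only (0.567). In each of these settings 1 repressor gene was higher. In all, 2 of 15 repressor genes were higher and 1 lower (20% called, beside 17.8% of all genes, median 0.14).

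Among 18 promoters of flowering, 2 were higher and 2 lower (22.2% called, beside 17.8% of all genes, median -0.02). *FLK* stood at 5659, 4343 and 4755 against 2329, 1814 and 2205, with WT at 1722, 1715 and 1832 (log2 difference 1.22 ± 0.14, adjusted p = 6.17e-05). *SPL3*, a target of miR156, was at 99.2, 116.7 and 105.4 against 195.0, 189.0 and 195.2 (-0.85 ± 0.17, adjusted p = 0.00391). Its relatives *SPL5* (-1.20 ± 0.41, adjusted p = 0.0494) and *SPL15* (1.13 ± 0.41, adjusted p = 0.0631) passed less firmly: *SPL5* did not without *prmt5* replicate 2 (-0.91) or *prmt4a;4b* replicate 2 (-1.15), and *SPL15* not without *prmt5* replicate 2 (0.83) or 3 (0.92) or *prmt4a;4b* replicate 2 (1.19) or 3 (0.81).

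Light signaling genes gave 3 higher and 4 lower of 32 (21.9% called, beside 17.8% of all genes, median -0.06). *PIF7* stood at 2012, 2493 and 2306 normalized counts in *prmt5*, 885.7, 710.5 and 633.7 in *prmt4a;4b* and 876.1, 704.6 and 969.4 in WT (log2 difference 1.61 ± 0.16, adjusted p = 2.28e-05). *HFR1* and *ATHB2*, which rise in shade and limit or drive elongation, were lower in *prmt5*: *HFR1* at 146.2, 133.1 and 84.5 against 313.0, 275.6 and 277.1 (-1.25 ± 0.20, adjusted p = 0.000923), and *ATHB2* at 560.9, 397.8 and 409.0 against 787.6, 821.4 and 873.4 (-0.86 ± 0.15, adjusted p = 0.00177). *PHOT2* differed on the *prmt4a;4b* side, at 6032, 6644 and 6667 against 3838, 3095 and 3529, with WT at 6418, 5964 and 5095 (0.89 ± 0.13, adjusted p = 0.000529). *PHYD*, *PIL1* and *FHL* made up the remaining calls.

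SR factor genes gave 3 higher and 1 lower of 20 (20% called, beside 17.8% of all genes, median 0.05). *RS31a* stood at 708.2, 765.8 and 836.2 in *prmt5*, 387.6, 364.2 and 281.9 in *prmt4a;4b* and 274.0, 291.2 and 419.8 in WT (log2 difference 1.16 ± 0.18, adjusted p = 0.000629). *RS2Z33* was lower, at 6425, 4789 and 5254 against 8241, 9126 and 9345 (-0.70 ± 0.15, adjusted p = 0.00557). *SR34a* (0.63 ± 0.15, adjusted p = 0.00906) fell short without *prmt5* replicate 1 (0.44) or *prmt4a;4b* replicate 1 (0.57), and *RSZ22a* (0.65 ± 0.15, adjusted p = 0.00796) without *prmt5* replicate 3 (0.53) or *prmt4a;4b* replicate 2 (0.56). Without *prmt5* replicate 1, 3 SR genes were lower.

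Of 26 Sm, LSm and U1 protein genes, 1 passed (3.85%, median -0.06): *U1A*, a protein of the U1 particle, which recognizes donor sites, at 944.3, 1254 and 1356 against 601.2, 655.6 and 580.7, with 964.2, 870.3 and 1082 in WT (log2 difference 0.95 ± 0.15, adjusted p = 0.000794). *PTB1* was the 1 gene of 10 other RNA-binding regulators to pass, at 1472, 1379 and 1502 against 612.4, 576.5 and 612.0, with WT at 569.2, 550.6 and 664.2 (1.27 ± 0.12, adjusted p = 1.875e-05). With *prmt5* replicate 1 or *prmt4a;4b* replicate 1 left out, 2 of these 10 were higher. Both differences were higher in *prmt5*, but *U1A* was low in *prmt4a;4b* and *PTB1* high in *prmt5* when read against WT. Of 123 genes whose product names matched ribosomal proteins of the cytosolic type, 19 were higher and 1 lower (16.3% called, beside 17.8% of all genes, median 0.24), and 36 were higher without *prmt5* replicate 1. The list was drawn by product name, so it may also hold ribosomal proteins of plastids or mitochondria. The lower count was 0 without *prmt5* replicate 2 or 3 or *prmt4a;4b* replicate 2 and 2 without *prmt4a;4b* replicate 1. *STV1* (ribosomal protein L24) stood at 9197, 12560 and 13620 against 8364, 6512 and 6345 (0.74 ± 0.16, adjusted p = 0.00675). *AT1G48830* (S7e; 0.77 ± 0.14, adjusted p = 0.00262), *AT3G06680* (L29e; 0.99 ± 0.19, adjusted p = 0.00329) and *AT1G29965* (L18ae; 0.95 ± 0.20, adjusted p = 0.00509) were likewise higher in *prmt5*. Ribosomal protein genes occur in close copies, so reads may be split among them.

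Of 13 flavonoid genes tested, 1 passed (7.69%, beside 17.8% of all genes), and the differences of the list were 0.16 to 1.59 (median 0.54). *F3H*, which encodes flavanone 3-hydroxylase, stood at 1165, 1605 and 1883 in *prmt5*, 662.1, 489.9 and 398.8 in *prmt4a;4b* and 1271, 1193 and 1457 in WT, so the lower value was that of *prmt4a;4b* (log2 difference 1.59 ± 0.20, adjusted p = 0.000147). The count of higher genes was 2 without *prmt5* replicate 1 or *prmt4a;4b* replicate 3, 4 without *prmt5* replicate 2, 3 without *prmt4a;4b* replicate 2 and 7 without *prmt4a;4b* replicate 1.

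Of 28 salt, drought, cold and ABA genes, 2 were higher and 2 lower (14.3% called, beside 17.8% of all genes, median 0.24), and 4 were lower without *prmt5* replicate 1. *SOS2*, a protein kinase of salt tolerance, was lower in *prmt5*, at 103.4, 72.8 and 66.4 against 196.3, 107.7 and 165.0 (log2 difference -0.95 ± 0.26, adjusted p = 0.0188), and its partner, the calcium sensor *SOS3*, was higher (0.91 ± 0.31, adjusted p = 0.0497), but not past the limits without *prmt5* replicate 2 (0.91) or 3 (0.91) or *prmt4a;4b* replicate 1 (0.81) or 3 (0.72). The calls of *RAB18* (-0.84) and *CBF2* (1.38) rested on overlapping libraries; *CBF2* had 645.3 normalized counts in *prmt5* replicate 3 and 150.4 and 71.3 in the others, with a difference of -0.03 without that library, and it missed the limits without any single library of WT or *prmt4a;4b* (1.17 to 1.71). *RAB18*, at 2070, 664.0 and 937.1 against 2791, 2052 and 1707, was at -0.54 and -0.70 without *prmt5* replicates 2 and 3 and at -0.64 and -0.91 without *prmt4a;4b* replicates 1 and 2, and did not pass in any of these, nor without WT replicate 3.

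Of 17 salicylate and jasmonate defence genes, 0 were higher and 2 lower (11.8% called, beside 17.8% of all genes). These were the jasmonate-induced storage protein genes *VSP2* and *VSP1*, near copies whose reads may be split. *VSP2* stood at 892.1, 483.2 and 599.9 against 2984, 1575 and 663.8, which overlap (log2 difference -1.41 ± 0.38, adjusted p = 0.0191). In *VSP1* the difference was -0.70 ± 0.21 (adjusted p = 0.0338). *VSP1* fell short without *prmt5* replicate 3 (-0.51) or *prmt4a;4b* replicate 1 (-0.53). Without *prmt4a;4b* replicate 3, 4 genes of the list were lower, and without *prmt4a;4b* replicate 1 or any 1 WT library, 1 was higher. Among heat shock genes, *HSP90.1* alone of 8 was lower (12.5% called, beside 17.8% of all genes). It differed by -0.60 ± 0.20 (adjusted p = 0.0418), with overlapping libraries. It did not pass without *prmt5* replicate 1 (-0.50) or 3 (-0.51) or *prmt4a;4b* replicate 2 (-0.57) or 3 (-0.50), while 2 heat shock genes were lower without *prmt5* replicate 2. Antenna and Rubisco small subunit genes gave 1 higher and 1 lower of 22 (9.09% called, beside 17.8% of all genes). Without *prmt5* replicate 1 these counts were 2 and 3, without *prmt4a;4b* replicate 1 there were 2 higher, and without *prmt4a;4b* replicate 2 there were 2 lower. *RBCS1A* (0.72 ± 0.22, adjusted p = 0.0318) did not pass without *prmt5* replicate 3 (0.49) or *prmt4a;4b* replicate 3 (0.65), and *LHB1B1*, one of several near-identical antenna genes (-0.74 ± 0.22, adjusted p = 0.0263), not without *prmt5* replicate 2 (-0.61) or *prmt4a;4b* replicate 3 (-0.58).

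**Figure D5:**
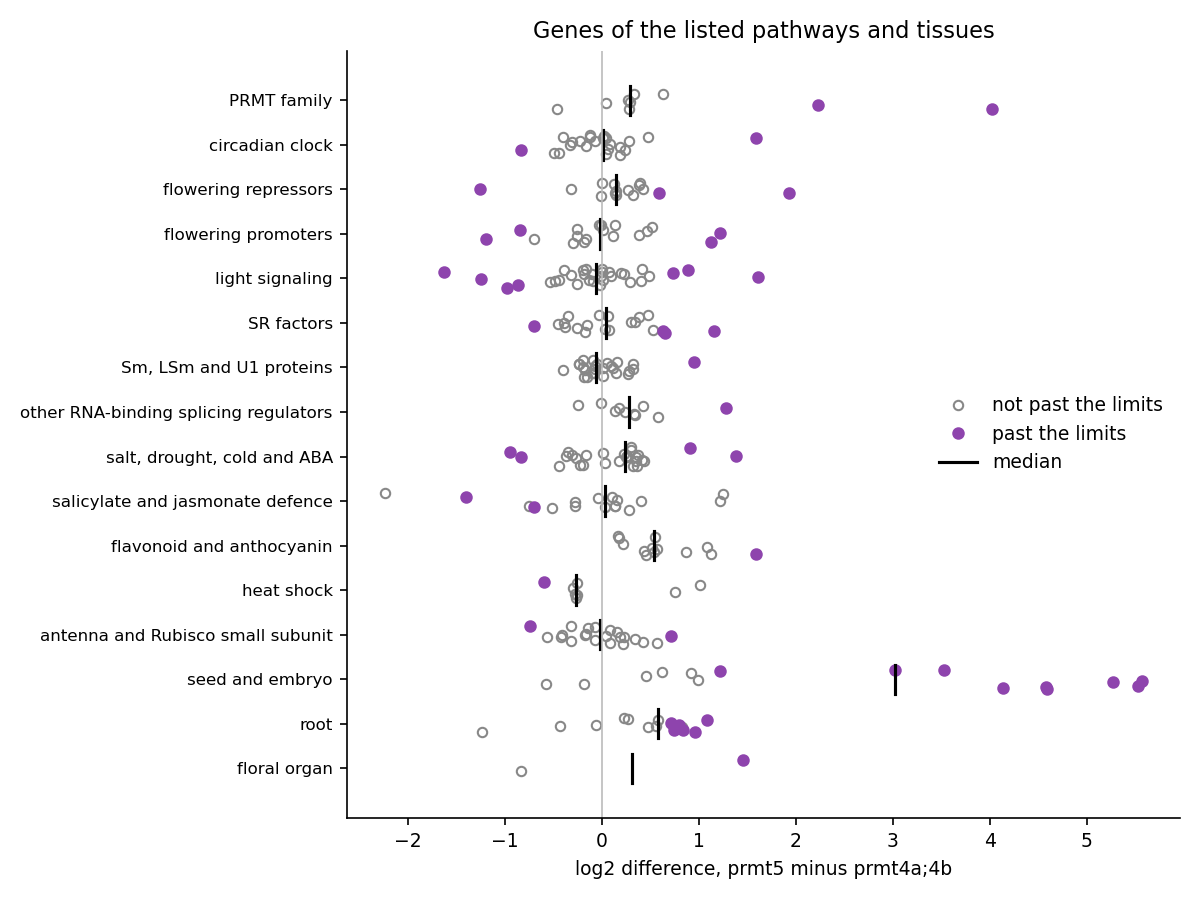
Log2 difference (*prmt5* minus *prmt4a;4b*) of each tested gene of the pathway and tissue lists; filled points passed the limits, open ones did not, and bars mark list medians. Most medians lie near 0; the seed and embryo (3.02), root (0.58) and flavonoid (0.54) lists lie above it.

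Summed levels of the seed and root markers overlapped between the mutants. Of 15 seed and embryo genes, 9 were higher in *prmt5* and 0 lower (60% called, beside 17.8% of all genes, median 3.02), but their summed normalized counts were 14370, 1316 and 3225 in *prmt5*, 2845, 2154 and 2470 in *prmt4a;4b* and 4295 to 6856 in WT, so the groups overlapped and *prmt5* replicate 1 was far above the others. Without that library 4 were higher and 2 lower, and without *prmt4a;4b* replicate 2 there were 4 higher. *CRU3*, a cruciferin storage protein gene, stood at 4721, 62.7 and 814.4 against 118.0, 85.5 and 115.7, with 504.3, 380.8 and 1054 in WT (log2 difference 4.13 ± 0.97, adjusted p = 0.0092). *SESA2*, for a seed storage albumin, was at 231.9, 12.5 and 43.6 against 2.48, 0 and 4.82 (adjusted p = 0.00436), and its close copies *SESA1* (205.8, 3.13 and 23.63 against 0, 4.22 and 0, adjusted p = 0.0136) and *SESA5* (40.7, 3.13 and 30.0 against 0, 0 and 1.205, adjusted p = 0.00925) passed as well. Without *prmt5* replicate 1 and *prmt4a;4b* replicate 3 together, 2 of the list were higher. In whole plants, fewer cells of a kind and less RNA per cell cannot be told apart.

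Root markers gave 6 higher of 15 (40% called, beside 17.8% of all genes, median 0.58) and 3 without *prmt4a;4b* replicate 1 or 2. Their summed counts overlapped, at 48200 to 55930 in *prmt5*, 44050 to 63200 in *prmt4a;4b* and 56680 to 62690 in WT. *EXPA18*, a root hair expansin gene, stood at 551.5, 540.3 and 338.1 against 279.5, 261.8 and 259.0, with 136.5, 144.8 and 189.4 in WT (log2 difference 0.84 ± 0.19, adjusted p = 0.00796). *PRP3* (1.08 ± 0.27, adjusted p = 0.0142) and *COBL9* (0.96 ± 0.26, adjusted p = 0.0195), both of root hairs, were also higher. Of the floral organ list only 2 genes were tested, and *SEP3* was higher in *prmt5*, at 87.7, 98.7 and 152.7 against 24.8, 28.5 and 71.1, with 176.2, 173.2 and 119.3 in WT (1.45 ± 0.35, adjusted p = 0.0114). The other tested gene went the other way (-0.83) and did not pass (50% called, beside 17.8% of all genes, median 0.31).

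Of 71 plastid-encoded genes tested, 2 were higher and 11 lower (18.3% called, beside 17.8% of all genes, median -0.77), and of 39 mitochondrial ones 0 and 6 (15.4% called, median -0.57). The plastid count rested on single libraries: 3 and 2 were lower without *prmt5* replicates 2 and 3, and 6, 25 and 1 without *prmt4a;4b* replicates 1, 2 and 3, in the order given. *ATPA*, a subunit of the plastid ATP synthase, stood at 35.5, 32.1 and 47.3 against 80.7, 70.7 and 143.4 (log2 difference -1.36 ± 0.31, adjusted p = 0.00861). *PSBA*, the photosystem II D1 protein gene, was at 568.2, 159.7 and 220.9 against 1138, 312.5 and 1723, with overlap (-1.75 ± 0.53, adjusted p = 0.0311), and did not pass without *prmt5* replicate 2 (-1.43) or 3 (-1.57) or *prmt4a;4b* replicate 3 (-1.22). Higher ones were 4 without *prmt5* replicate 1 and 7 without *prmt4a;4b* replicate 3, so that the latter left more higher than lower calls. The 2 higher plastid genes, *RPL2.1* and *RPL2.2*, are copies with identical counts and thus 1 measurement (250.7, 248.2 and 316.3 against 168.9, 124.6 and 172.3). Of the mitochondrial genes, *ORF262* was at 50.1, 31.3 and 41.8 against 103.1, 125.6 and 106.0 (-1.45 ± 0.31, adjusted p = 0.00616), and the mitochondrial count was 2 or 3 without *prmt5* replicate 2 or 3 or *prmt4a;4b* replicate 2 or 3.

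By class of gene, calls among non-coding transcripts were mostly lower in *prmt5*. Of 100 genes annotated as ncRNA, 30 (30.0%) were lower and 4 higher, of 200 lncRNA genes 29 (14.5%) and 11, of 146 transcribed pseudogenes 27 (18.5%) and 5, and of 20324 protein-coding genes 1587 (7.81%) and 1990. All 6 calls among 16 microRNA genes were lower in *prmt5* (37.5%, beside 8.16% of all genes). The counts are of reads at the precursor genes and not of mature microRNAs. Reads of transcripts that overlap these genes cannot be told apart. Mature arms of 3 of them from RefSeq (TAIR10) are printed with bases 2 to 8 in capitals to show that these bases differ: miR398c-3p at chr5:4694778-4694798 (plus), miR162a-3p at chr5:2634936-2634956 (minus) and miR156c-5p at chr4:15415491-15415510 (minus).
ath-miR398c-3p: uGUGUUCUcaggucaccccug
ath-miR162a-3p: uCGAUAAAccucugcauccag
ath-miR156c-5p: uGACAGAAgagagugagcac

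*MIR398c*, whose microRNA targets copper/zinc superoxide dismutase transcripts, stood at 1759, 1355 and 1437 normalized counts in *prmt5*, 3719, 3631 and 3495 in *prmt4a;4b* and 1846, 1594 and 2163 in WT (log2 difference -1.25 ± 0.14, adjusted p = 6.27e-05). *MIR162a*, which targets *DCL1*, was at 38.7, 32.1 and 25.5 against 139.1, 174.2 and 137.3 (-2.23 ± 0.25, adjusted p = 6.24e-05), and *MIR156c*, of the family that targets *SPL* genes, at 7.31, 7.05 and 12.7 against 50.9, 46.5 and 49.4 (-2.42 ± 0.45, adjusted p = 0.00251). In these 3 genes *prmt4a;4b* was above WT and *prmt5* was not past the limits against it. *MIR838* was also lower (-2.29 ± 0.66), but only its reads in *prmt4a;4b* let it be tested. *MIR834* (-0.64) missed the limits without *prmt5* replicate 2 (-0.62) or 3 (-0.65) or *prmt4a;4b* replicate 1 (-0.49), and *MIR850* (-0.70) without *prmt5* replicate 2 (-0.60) or 3 (-0.69) or *prmt4a;4b* replicate 2 (-0.65) or 3 (-0.75).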

How the data were processed

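Polyadenylated RNA of whole plants was sequenced on TruSeq libraries. The authors deposited whole-number read counts per gene (33602), AS bin (7973) and intron (120717), made with TopHat2 2.0.9 (maximum intron length 5000) on TAIR10, R 3.0.2 and edgeR 3.4.2 per the submitters' processing notes. The count tables came per mutant, with identical WT columns in both, and hold fold changes, FDR and splicing indices of the authors' own comparisons, which were not used.

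Counts were refitted with edgeR 4.0.16 (R 4.3.3, limma 3.58.1): TMM scaling, quasi-likelihood test of *prmt5* minus *prmt4a;4b* in all 9 libraries, Benjamini-Hochberg adjustment over all features tested. Genes needed a mean of 10 reads in a genotype, and AS bins and introns 5 reads, a gene density above 0.05 in every genotype and a splicing index above 0.05 in at least 1. The splicing index ratio used 0.5 added reads. DESeq2 1.42.0 was an alternative. Scripts were tested on simulated data. Intervals and the floor of 3 reads cover counting error only. Python 3.11.15 and pysam 0.24.0 were used for sequences, scipy 1.17.1 for counting intervals and R for the permutation test.

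The members, lists and rules were chosen with earlier results of these data known. Named were the 9 PRMT genes, the 8 largest differences in each direction without overlap and with a mean of 100 normalized counts in the higher mutant, up to 4 called members of each list and of each opposite direction by smallest adjusted p, 2 AS bins per class and direction and 6 introns per direction by smallest adjusted p with no overlap and 20 reads in the higher mutant, and the events tested by RT-PCR. List introns and microRNA genes beyond that rule were chosen after their values were seen. Gene names and products came from RefSeq (32835 of 33602 loci matched), and 98.7% of a check of introns began with GT and ended with AG in the genome used. Alternatives covered normalization, filters, thresholds, the replicate number as a block and each library left out. Of the features the rule named, 1 intron and 1 gene are not reported here.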

Additional observations from a re-analysis of the deposited data

How the results depend on the processing

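Of 115 named genes, bins and introns, 106 passed the limits and 81 did so in every alternative in which they were tested. Direction reversed in 2 of them: *PRMT5*, at 0.04, ranged from -0.0913 (without *prmt5* replicate 1) to 0.10 (without *prmt5* replicate 3), with -0.02 without *prmt4a;4b* replicate 2 and -0.07 without *prmt5* replicate 1 and *prmt4a;4b* replicate 3 together, and *CBF2* ranged from -0.0295 (without *prmt5* replicate 3) to 1.85 (without *prmt5* replicate 2). Higher and lower counts moved by more than 1.5 times under these settings, and the cause was not tested beyond the number of features each lets through. For AS bins, no limit on the splicing index gave 468 and 277 (*prmt5* farther from WT in 89 of the lower ones), an adjusted p under 0.05 gave 177 and 64 (farther in 114 and 20), at least 20 reads left *prmt5* farther in 27 of the lower, and the WT filter in 89 of the 206 higher ones. With gene reads as an offset, bins of alternative 3′ (41), alternative 5′ (35) and ES (13) class were fewer among the higher, and those of mixed class (19) among the lower. For introns, DESeq2 gave 218 lower (farther in 58), at least 20 reads 1397 and 162 (1162 and 38), no filter 255 lower, a filter on the mean over all 9 libraries 1881 and 249 (farther in 1493 of the higher), the WT filter 845 and 157 (495 and 58), and an adjusted p under 0.05 1981 and 169 (farther in 48 of the lower). Leaving out 1 library at a time gave 1436 to 2333 higher and 1220 to 2316 lower genes (*prmt5* farther in 851 to 1258 and 634 to 1133), 189 to 331 and 76 to 185 AS bins (120 to 195 and 29 to 62), 2305 to 3317 and 223 to 444 introns (1853 to 2572 and 68 to 129), and an intron share difference of 0.358 to 0.459 percentage points. Deviations of same-numbered mutant libraries from their group means correlated at -0.115 to 0.117. A pair of unlike number, *prmt5* replicate 3 and *prmt4a;4b* replicate 1, reached 0.142. These values cannot show whether libraries were grown or prepared together, and the main fit did not pair them. With the replicate number as a block the counts were 1990 and 1701 genes, 273 and 130 AS bins and 2794 and 309 introns. Depth limits the introns with few reads in 1 mutant, whose ratios carry wide counting intervals.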
